A study of Homo sapiens with 121 samples.

Results

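The 10 genes described here are naive-associated pluripotency factors and developmental pluripotency associated (DPPA) genes, chosen by name from the 25610 genes read from the expression table: the transcription factor genes ZFP42, PRDM14, TFCP2L1, KLF4, KLF5 and TBX3, and the DPPA genes DPPA2, DPPA3, DPPA4 and DPPA5. All 10 were found in the table. They were followed across 121 single cells of WA26, a human embryonic stem cell (hESC) line grown without feeder cells in E8 medium on Matrigel. Each cell was lysed and split by scT&R-seq, in which mRNA is captured on oligo-dT beads and copied by a Smart-seq2 based protocol, while the genomic DNA is used for qPCR of the telomere repeat (T) and of Alu elements (R). Their T/R ratio is a relative telomere length, and the sample names sort 81 cells as long, 25 as medium and 15 as short telomere. No cell was treated or edited, and all groups share the line and the culture conditions. No culture, passage or plate is named for any cell, so each telomere group counts as 1 sample and no p-value was computed. The questions were which of these genes such cells express, whether the genes vary together, and whether their levels differ with telomere length.

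Human pluripotent cells can be held in a naive state, which resembles the epiblast before implantation, or in a primed state, which resembles the epiblast after it. Conventional hESC lines, grown with FGF and TGF-beta signalling as in E8 medium, are primed. Several transcription factors, among them TFCP2L1, KLF4, KLF5 and TBX3, are known for their role in naive pluripotency. ZFP42 and PRDM14 are used as markers of pluripotency in both states, while the DPPA genes encode small nuclear or RNA-binding proteins of early embryos, germ cells and pluripotent cells.

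Levels are TPM, transcript counts scaled by transcript length and by the total of the cell, so that levels of different genes can be set side by side. A gene was called detected in a cell above TPM 1. Read numbers cannot be recovered from such values, so the depth behind each value is unknown here, and a value of 0 can be a missed transcript. The median number of detected genes was 9165 in the long, 8626 in the medium and 5620 in the short group. The cells were therefore also described on either side of 8000 detected genes. The 68 cells above this border, called gene-rich, comprised 51 of the long, 14 of the medium and 3 of the short group. The 53 cells up to it, called gene-poor, comprised 30, 11 and 12. The label of pluripotent cells was met by the core markers: POU5F1 and LIN28A were detected in all 121 cells, and of 10 core pluripotency and hESC genes, 9 were detected in at least 50% of the cells.

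Of the 10 genes, 4 were detected in at least 50% of the cells: DPPA4, ZFP42, PRDM14 and DPPA2. The same threshold was passed by 37.5% of all genes with a value above 0 in any cell. DPPA5 and DPPA3 were detected in a minority of the cells, and TFCP2L1, KLF4, TBX3 and KLF5 in fewer than 20% of them. With DPPA5 the number was 5 among gene-rich cells, and without DPPA2 it was 3 among gene-poor cells.

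ZFP42, also called REX1, encodes a zinc finger protein that is widely used as a marker of undifferentiated cells. It lies on chromosome 4 from 188916925 to 188926200 on the plus strand (GRCh37). ZFP42 was detected in 117 of 121 cells, or 96.7% (exact 95% binomial interval 91.7 to 99.1). Its TPM ran from 0.63 over a median of 79.2 to 188.9 in long telomere cells, from 1.5 over 72.2 to 568.6 in medium telomere cells and from 0.10 over 33.5 to 143.4 in short telomere cells. The ranges of the groups overlapped, and the highest value was in a medium telomere cell. In gene-rich cells, ZFP42 was at least at TPM 25.1, with a coefficient of variation across cells of 0.41. In the other cells the coefficient of variation was 1.38. All 4 cells without ZFP42 above TPM 1 had few detected genes, between 2030 and 4217, and they were long telomere cells 17 and 69 and short telomere cells 13 and 15.

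PRDM14, a zinc finger protein of the PR domain family that represses differentiation genes and is needed for primordial germ cells, was detected in 103 cells (85.1%, interval 77.5 to 90.9) and listed at 0 in 11. The TPM of PRDM14 reached from 0 over a median of 24.2 to 266.1 in long telomere cells, from 0 over 20.0 to 160.8 in medium telomere cells and from 0 over 7.59 to 45.5 in short telomere cells. The ranges of all 3 groups started at 0, and the highest values were in long telomere cells. It was detected in 97.1% of the gene-rich cells and in 69.8% of the others.

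The promoters of ZFP42, DPPA2 and DPPA4 are shown because these genes form the closest and the next closest pair by coexpression over all cells, given further on. DPPA5, which follows in a pair with DPPA4, is not shown, and its window held 3 matches to GGGCGG and 20 CpG dinucleotides. Each sequence spans 250 bases before to 50 bases after the gene's start (RefSeq, GRCh38.p14), written 5′ to 3′ along the gene. Capitals mark matches on either strand to the GC box, spelled GGGCGG, to the motif of SOX factors, spelled CTTTGTT, and to the box spelled CCAAT. The octamer of POU factors, spelled ATGCAAAT, and the box spelled TATAAA were searched as well, and neither was in these 3 windows.
ZFP42, chr4:187995521-187995820, plus strand: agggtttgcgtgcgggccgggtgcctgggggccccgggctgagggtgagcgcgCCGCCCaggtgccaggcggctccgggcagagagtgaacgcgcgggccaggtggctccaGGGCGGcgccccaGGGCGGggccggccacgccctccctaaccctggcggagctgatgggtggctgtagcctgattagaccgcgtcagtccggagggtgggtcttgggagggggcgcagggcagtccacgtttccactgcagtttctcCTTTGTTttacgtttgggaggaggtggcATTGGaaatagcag
DPPA2, chr3:109316468-109316767, minus strand: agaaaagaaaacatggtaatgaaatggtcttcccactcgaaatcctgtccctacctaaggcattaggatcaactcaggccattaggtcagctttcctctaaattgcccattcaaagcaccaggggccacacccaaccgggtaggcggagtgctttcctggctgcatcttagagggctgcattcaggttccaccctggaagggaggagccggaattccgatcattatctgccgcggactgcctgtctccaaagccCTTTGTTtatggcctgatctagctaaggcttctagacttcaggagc
DPPA4, chr3:109337497-109337796, minus strand: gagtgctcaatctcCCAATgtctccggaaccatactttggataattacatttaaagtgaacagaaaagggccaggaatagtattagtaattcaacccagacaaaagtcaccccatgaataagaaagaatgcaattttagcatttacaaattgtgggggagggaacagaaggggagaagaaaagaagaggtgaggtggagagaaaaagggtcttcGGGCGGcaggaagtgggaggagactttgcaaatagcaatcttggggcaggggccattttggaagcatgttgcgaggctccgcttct
CTTTGTT was in the ZFP42 and the DPPA2 window, 1 match each, and in 5.20% of all 35116 promoter windows. GGGCGG matched 3 times in ZFP42, 1 time in DPPA4 and never in DPPA2, against 45.0% of all windows with a match. The ZFP42 window held 24 CpG dinucleotides, DPPA2 held 7 and DPPA4 held 5, against a median of 14. The windows of the neighbouring genes DPPA2 and DPPA4 were thus below the median in CpG and that of ZFP42 was above it.

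Among the other transcription factors, detection was rare. TFCP2L1, a CP2 family factor of the naive network, was detected in 20 cells (16.5%, interval 10.4 to 24.4), namely 12 long, 7 medium and 1 short telomere cell, and 18 of them had more than 8000 detected genes. The gene lies on chromosome 2 from 121974163 to 122042778 on the minus strand (GRCh37, as for all gene positions here). Its highest TPM was 12.9, in short telomere cell 3. Detected values of TFCP2L1 had a median TPM of 3.10, so the level was low in the positive cells as well.

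KLF4, a Krüppel-like factor used in reprogramming to pluripotency, was detected in 17 cells (14.0%, interval 8.40 to 21.5), of which 15 were long and 2 were medium telomere cells. In all 15 short telomere cells KLF4 was listed at 0, where 3 counts of 15 set a limit of 20% on the share of cells with a value, for counting error only. Of these cells 12 were gene-poor, and missed transcripts are not covered by this limit. The positive cells differed by their number of detected genes: among the 12 with more than 8000 detected genes KLF4 ran from TPM 1.39 to 13.6, and among the other 5 from 15.6 to 95.2. The highest values, TPM 95.2 and 69.8, were in long telomere cells 1 and 2, and together these cells held 53.2% of the KLF4 TPM summed over all cells. KLF4 occupies 110247133 to 110252763 on the minus strand of chromosome 9. Another annotated gene, which has no symbol, shared 5.52% of the 50-base stretches of the KLF4 transcripts. Reads from these stretches cannot be assigned to either gene.

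KLF5, a related Krüppel-like factor on chromosome 13 (73629114 to 73651679, plus strand), was the least often detected of the 10 genes, in 7 cells (5.79%, interval 2.36 to 11.6). Those 7 values lay between TPM 2.54 and 7.75, in 6 long telomere cells and 1 medium telomere cell. TBX3, a T-box factor on chromosome 12 (115108060 to 115121980, minus strand), was detected in 13 cells (10.7%, interval 5.85 to 17.7), with 7 long, 5 medium and 1 short telomere cell. Its highest value, TPM 16.4, was in short telomere cell 2, and the detected values had a median of 1.98. TBX3 shared 3.07% of its 50-base stretches with the antisense gene TBX3-AS1.

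Detection of the DPPA genes ran from 34.7% of the cells for DPPA3 to 100% for DPPA4. DPPA4, a SAP domain protein that pairs with DPPA2 on chromatin, was detected in every cell, as were 1.87% of all genes with a value above 0 in any cell. DPPA4 ranked 567th of all genes by mean TPM. Its TPM ran from 77.9 over a median of 311.1 to 612.3 in long telomere cells, from 31.2 over 274.1 to 506.8 in medium telomere cells and from 11.1 over 201.8 to 472.4 in short telomere cells. The lowest value was in short telomere cell 14, which had 3481 detected genes. DPPA4 was also the steadiest of the 10 genes, with a coefficient of variation of 0.44 over all cells and 0.28 among the gene-rich cells.

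DPPA2, the partner of DPPA4, is its neighbour on chromosome 3: DPPA2 occupies 109012635 to 109035364 and DPPA4 109044991 to 109056393, both on the minus strand and 9626 bases apart (GRCh37). Unlike its neighbour, DPPA2 was detected in 75 cells only (62.0%, interval 52.7 to 70.7). The TPM of DPPA2 ran from 0 over a median of 13.6 to 129.6 in long telomere cells, from 0 over 9.59 to 100.6 in medium telomere cells and from 0 over 0 to 203.6 in short telomere cells. The highest value of all was in short telomere cell 2, and the ranges of the groups overlapped. Detection of DPPA2 differed most between the sets of cells, with 89.7% (interval 79.9 to 95.8) of the gene-rich cells and 26.4% (15.3 to 40.3) of the others.

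DPPA5, or ESG1, a small protein with an RNA-binding KH-like domain encoded on chromosome 6 (74062786 to 74063999, minus strand), was detected in 52 cells (43.0%, interval 34.0 to 52.3). In long telomere cells the TPM of DPPA5 ran from 0 to 519.4 with a median of 0, in medium telomere cells from 0 to 174.5 with a median of 0, and in short telomere cells from 0 to 36.6 with a median of 0. Detected values of DPPA5 started at TPM 1.17 and had a median of 45.8. It was detected in 64.7% of the gene-rich cells and in 15.1% of the others.

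DPPA3, also called STELLA, a protein of oocytes and germ cells that acts on DNA methylation and is encoded on chromosome 12 (7864029 to 7870155, plus strand), was detected in 42 cells (34.7%, interval 26.3 to 43.9). Its highest TPM was 433.3 in the long, 131.5 in the medium and 32.9 in the short group, with a median of 0 in each. The level of DPPA3 is the least certain of the 10. A gene without a symbol shared the most 50-base stretches with its transcripts, followed by the pseudogenes DPPA3P2 and DPPA3P1. In all, 45.0% of these stretches also occur in transcripts of other genes. This share was at most 5.52% for each of the other members. The annotation names 11 pseudogenes after DPPA3, 4 after DPPA2, 3 after DPPA5, 2 after DPPA4 and 1 after KLF4.

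**Figure D1:**
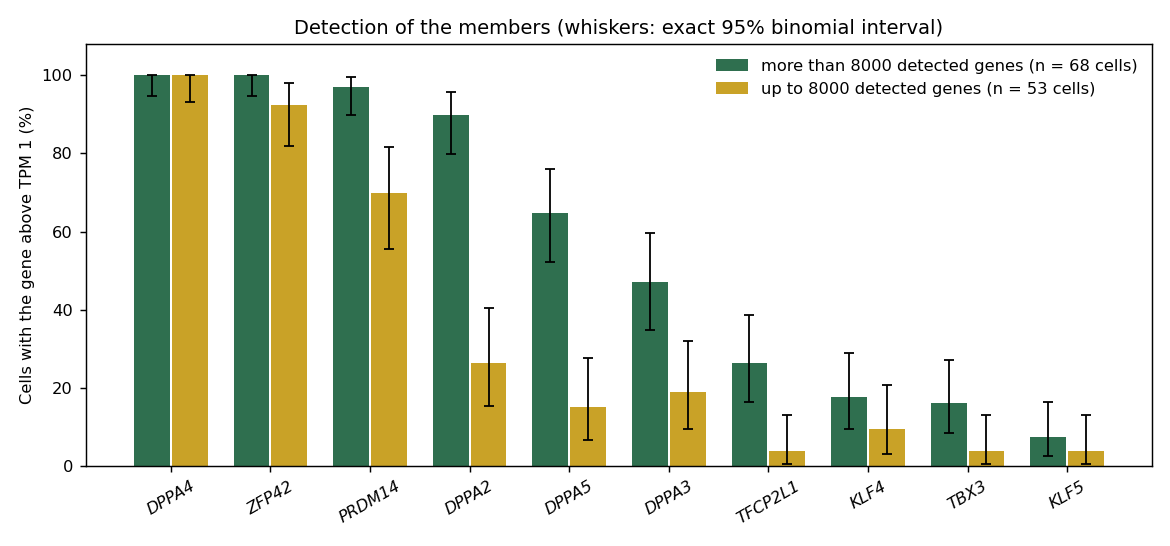
Percentage of cells with each member above TPM 1, for the 68 gene-rich and the 53 gene-poor cells. Bars are shares of cells and whiskers are exact 95% binomial intervals, which cover counting error only. DPPA4 is at 100% in both sets, while DPPA2 is at 89.7% and 26.4% and DPPA5 at 64.7% and 15.1%.

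By mean log2(TPM + 1) over all cells, with the SD across cells, the order was DPPA4 (7.97 ± 0.94), ZFP42 (5.74 ± 1.76), PRDM14 (4.05 ± 2.12), DPPA2 (2.99 ± 2.55), DPPA5 (2.28 ± 2.86), DPPA3 (1.72 ± 2.53), KLF4 (0.52 ± 1.30), TFCP2L1 (0.42 ± 0.84), TBX3 (0.24 ± 0.75) and KLF5 (0.17 ± 0.60). DPPA4 was above ZFP42 in 115 of 121 cells, and ZFP42 was above PRDM14 in 99. Only the gap between DPPA4 and ZFP42, 2.23, was larger than the SD of both genes, and every other pair of neighbours in this order differed by less than the SD of each. PRDM14 was above DPPA2 in 73 cells and below it in 41. DPPA4 was the highest of the 10 genes in 111 cells, ZFP42 in 5, PRDM14 in 2, DPPA5 in 2 and DPPA3 in 1.

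Cells held between 1 and 9 detected members. Long telomere cells had 4.88 ± 1.61 (SD across 81 cells), medium telomere cells 4.84 ± 1.72 and short telomere cells 3.40 ± 1.45. The mean number of all detected genes was 8296 ± 2152, 7980 ± 2070 and 5784 ± 2355 in the same order. The long minus short difference of 1.48 members was smaller than the SD in the long group and slightly above that in the short group. The cell with 9 members was medium telomere cell 1, with 10481 detected genes, in which only KLF5 stayed below TPM 1. The cell with 1 member was short telomere cell 15, which had 2030 detected genes, the fewest of all cells, and DPPA4 at TPM 245.5. Spearman's rho between the number of members and the number of all detected genes was 0.79 over the 121 cells, 0.48 among the 68 gene-rich cells and 0.71 among the 53 gene-poor cells. Gene-rich cells had 5.66 ± 1.30 members and the other cells 3.43 ± 1.20. Within these sets, the long group exceeded the short group by 0.98 and 0.48 members. The mean number of all detected genes was 9791 in long against 9188 in short gene-rich cells, and 5755 against 4933 in gene-poor cells.

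On the log2(TPM + 1) scale, which understates the change of low genes, 5 of the 10 members were higher by at least 1 in long than in short telomere cells: ZFP42, PRDM14, DPPA5, DPPA2 and DPPA4. None was lower by 1 or more. Of all 13439 genes whose mean TPM was 1 or more, 38.9% were higher by this amount and 3.75% were lower, with a median difference of 0.70 over all of them. Of the members, 7 passed this filter on the mean, which TFCP2L1, KLF5 and TBX3 did not. The median over all 10 members was 1.07. Rescaling each cell by genes above TPM 0 in every cell brought the median of all genes to 0.47 and left 29.1% higher and 9.41% lower, with 4 members higher and none lower. DPPA4 was the member no longer past 1, at 0.47.

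ZFP42 had the largest difference, 6.07 ± 1.29 in long against 3.81 ± 2.50 in short telomere cells, or 2.26. A long telomere cell was above a short one in 77.4% of all 1215 such pairs. PRDM14 differed by 1.62, from 4.28 ± 2.07 to 2.65 ± 2.04, and 73.7% of pairs had the higher value in the long telomere cell. For DPPA4 the means were 8.20 ± 0.59 and 6.97 ± 1.62, a difference of 1.23 with 75.2% of pairs, or 0.62 between the group medians. These 3 genes had the highest shares of pairs with the higher value in the long telomere cell, and in none of these genes did the groups separate. The 4 cells with fewer than 4000 detected genes are all short telomere cells (9, 13, 14 and 15). Without them 3 members were higher by at least 1, beside 29.1% of the genes compared, and none lower, beside 8.42%. They were DPPA5 by 1.28, ZFP42 by 1.16 and PRDM14 by 1.04, while DPPA4 was at 0.89 and DPPA2 at 0.75.

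DPPA5 differed by 1.60 and DPPA2 by 1.40, with many values at 0. For DPPA5, 46.3% of pairs had the higher value in the long telomere cell and 40.5% were equal, and for DPPA2 these shares were 56.5% and 18.9%. DPPA3 had a difference of 0.92, KLF4 of 0.68, KLF5 of 0.21, TFCP2L1 of 0.11 and TBX3 of -0.08. KLF4 and KLF5 were listed at 0 in every short telomere cell, so their differences depend on the value of 1 added to the TPM. The SD of the long group exceeded the difference in every member except ZFP42 and DPPA4, where the SD of the short group did.

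**Figure D2:**
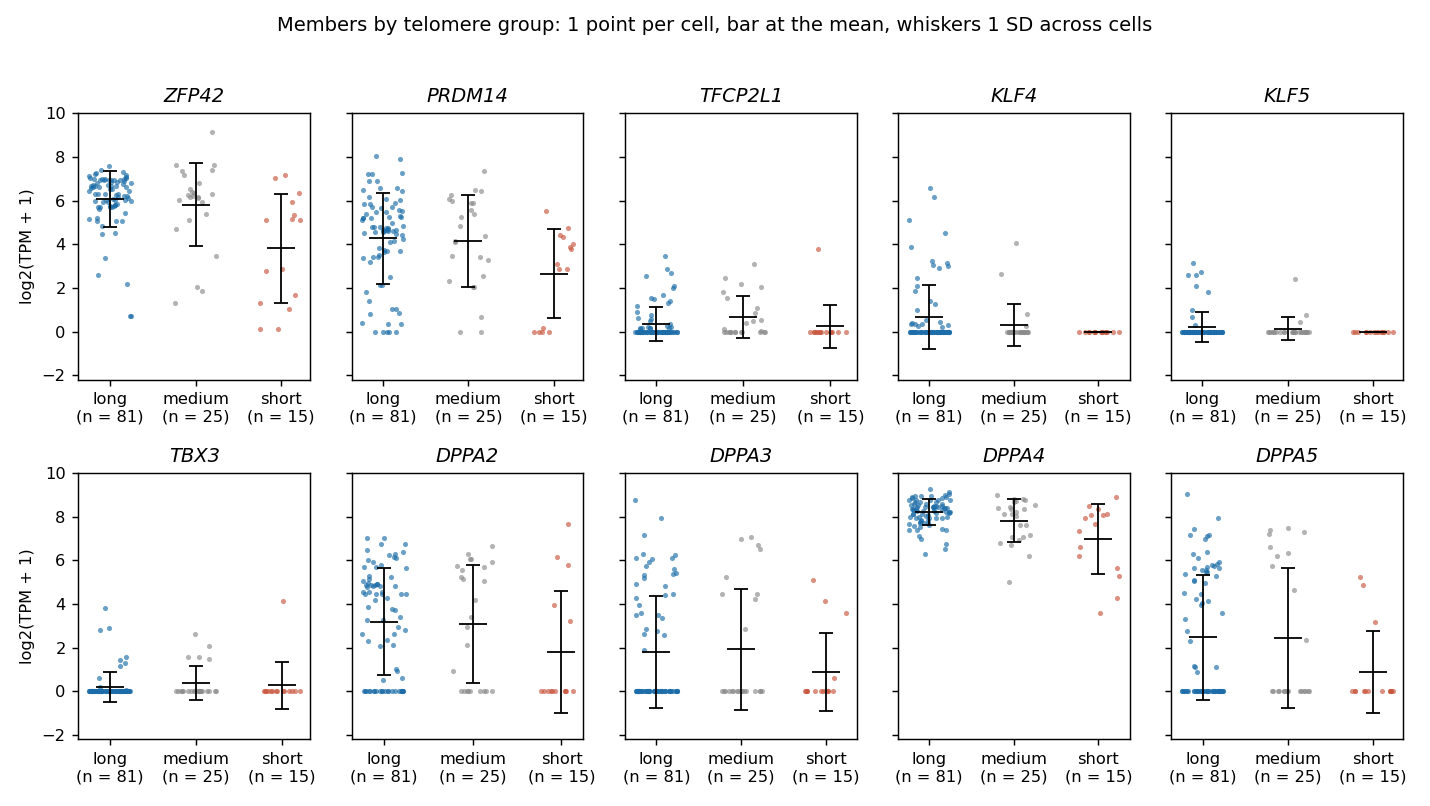
log2(TPM + 1) of the 10 members by telomere group, 1 point per cell, with the mean as a bar and 1 SD across cells as whiskers. ZFP42 has means of 6.07, 5.82 and 3.81 in this order and DPPA4 of 8.20, 7.82 and 6.97, with overlapping ranges in every panel.

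Except for KLF4 and TBX3, the mean in medium telomere cells lay nearer to that of long than of short telomere cells. The mean of ZFP42 was 5.82 ± 1.88 in medium telomere cells, that of PRDM14 4.16 ± 2.11 and that of DPPA4 7.82 ± 0.98. Over all cells, no member differed by 1 or more between long and medium telomere cells, with a largest gap of 0.38 for DPPA4. Of the genes compared, 0.893% were higher by 1 and 0.387% lower. DPPA5, at 0.03 over all cells, was at -1.26 among gene-rich cells, where 0.25% of the genes compared had a lower difference. Among gene-poor cells it was at 1.40, where 98.0% had a lower one, and all 11 medium telomere cells were at 0. DPPA3 was at -0.92 among gene-rich and at 0.79 among gene-poor cells. Between medium and short telomere cells, 5 members were higher by at least 1, against 33.8% of the genes compared, and none lower by 1, against 4.11%. These were ZFP42 (2.01), DPPA5 (1.56), PRDM14 (1.51), DPPA2 (1.29) and DPPA3 (1.04), and DPPA4 was at 0.85. Both contrasts with the short group use the same 15 short telomere cells.

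Cells of like complexity were compared next. Among gene-rich cells, 51 long telomere cells stood against 3 short ones, and 2 members were higher by at least 1, beside 11.4% of the genes compared, and none lower, beside 9.37%: DPPA5 by 2.06 and PRDM14 by 1.37. The 3 short telomere cells had ZFP42 at TPM 143.4, 129.0 and 61.1, so ZFP42 turned to -0.22. DPPA4 was at 359.0, 267.0 and 264.9 in them, with a difference of 0.19. PRDM14 was at 6.35, 6.35 and 20.6, all below the long group's median of 26.8. DPPA5 was at 7.95, 0 and 0, against 64.7% of the 51 long telomere cells with detection.

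In gene-poor cells, 30 long and 12 short telomere cells were compared, and 2 members were higher by at least 1, beside 26.4% of the genes compared, and none lower, beside 7.37%: ZFP42 by 2.26 and DPPA4 by 1.21. ZFP42 had a median TPM of 54.8 in these long telomere cells and 6.14 in the short ones, and DPPA4 one of 242.6 against 130.5. DPPA2 was at -0.07 and DPPA5 at 0.56. The 12 short telomere cells include cells 9, 13, 14 and 15, with 2030 to 3481 detected genes, while no long telomere cell had fewer than 4002. ZFP42 was at TPM 1.49, 0.10, 2.16 and 0.10 in them, and the comparison of gene-poor cells was not repeated without them. The number of detected genes thus still differed among gene-poor cells, with a median of 5889 in long and 5387 in short telomere cells. With this number as a covariate over all cells, an alternative added after the values were seen, the difference was 1.18 for ZFP42, 0.89 for PRDM14, 0.85 for DPPA4, 0.56 for DPPA5 and -0.42 for DPPA2. In that fit 1 member stayed above 1, beside 14.1% of the genes compared, and none was below -1, beside 6.03%. The part of the number of detected genes in the other differences was not tested further, and with 3 short telomere cells above 8000 detected genes, telomere group and complexity cannot be told apart in full.

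**Figure D3:**
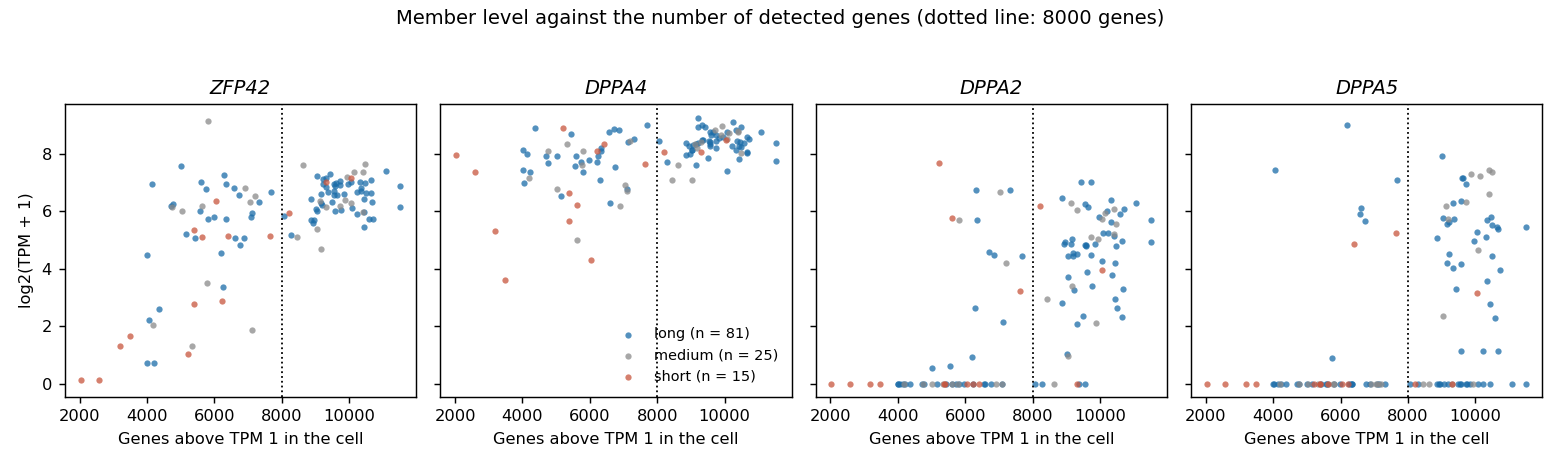
log2(TPM + 1) of ZFP42, DPPA4, DPPA2 and DPPA5 against the number of genes above TPM 1 in the cell, coloured by telomere group, with a dotted line at 8000 genes. DPPA2 is at 0 in most cells left of the line and above TPM 1 in 89.7% of those to its right.

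Gene-rich cells had the higher mean for 9 of the 10 genes, and 5 were higher by at least 1, beside 48.3% of the genes compared. The difference was 2.88 for DPPA2, 2.30 for DPPA5, 1.71 for ZFP42, 1.42 for PRDM14, 1.12 for DPPA3 and 0.90 for DPPA4, while the median of all genes compared was 0.96. KLF4 was the exception with -0.03. Spearman's rho with the number of detected genes was highest for DPPA2 (0.62 over 121 cells), followed by DPPA4 (0.52) and ZFP42 (0.52), beside a median of 0.34 over all genes compared.

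The T/R ratio was set against TPM without a logarithm. Pearson's r and Spearman's rho describe these 121 cells, which share their growth conditions and differ in complexity. KLF4 had the highest r, 0.43 with a rho of 0.22. An r of at least 0.2 was reached by 8.24% of the genes compared and one of -0.2 or lower by 2.82%, and KLF4 was the only member past either. The KLF4 coefficient rested on long telomere cells 1 and 2, which have the highest T/R ratios. Without these cells, r fell to 0.09 and rho to 0.16. Among gene-rich cells r was 0.03, and among the others, which include both cells, it was 0.52.

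PRDM14 and DPPA4 each had an r of 0.19, and a rho of 0.20 and 0.18. Without the same pair of cells the values of r were 0.22 and 0.24. Among gene-rich cells, r was 0.12 for PRDM14 and 0.03 for DPPA4, and among the others 0.22 and 0.31. ZFP42, the gene with the largest group difference, had an r of 0.04 only, while its rho was 0.19 and its r on the log2 scale 0.23. In gene-poor cells rho of ZFP42 was 0.36, and in the others it was -0.06. The remaining members had r between -0.11 (TBX3) and 0.10 (DPPA3), and the median over the 10 was 0.05.

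For DPPA5 the sign differed between sets of cells. Over all cells its r was -0.03, but among gene-rich cells r was -0.24 and rho -0.26, and within the 81 long telomere cells rho was -0.36. Positive values of r were 0.07 among gene-poor cells, 0.31 within the 25 medium telomere cells and 0.06 within the 15 short ones. These values stand beside the higher mean of DPPA5 in long than in short telomere cells, so its values did not follow a single direction along the T/R ratio.

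**Figure D4:**
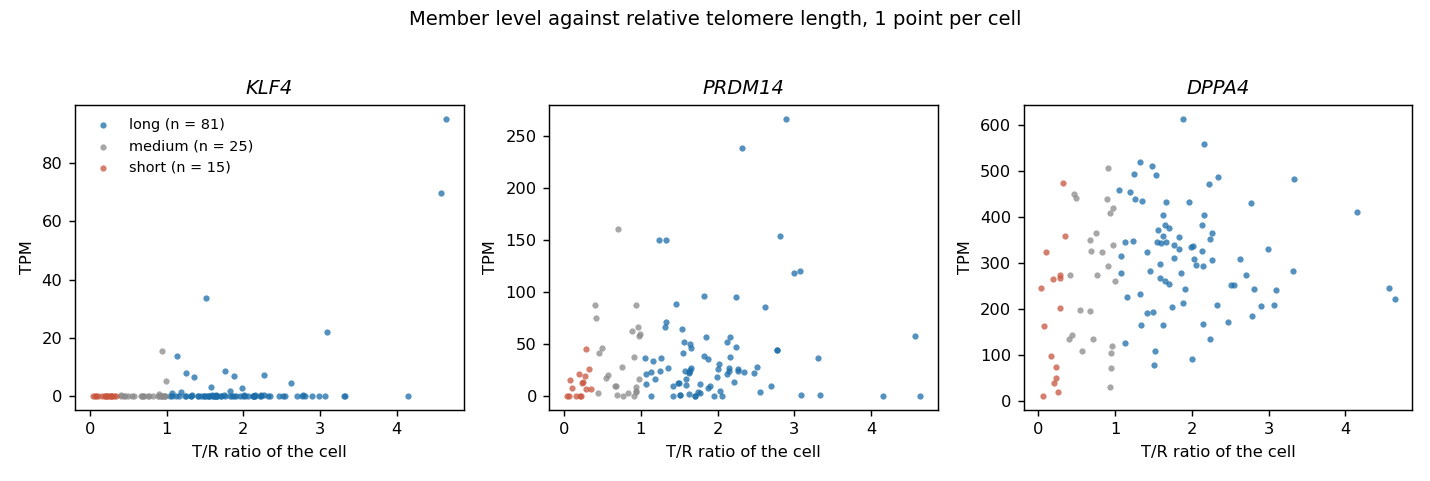
TPM of KLF4, PRDM14 and DPPA4 against the T/R ratio of each cell, coloured by telomere group. The 2 long telomere cells at the right end hold KLF4 at TPM 95.2 and 69.8, and no short telomere cell has KLF4 above 0.

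Coexpression was described for the 6 members detected in at least 20% of the cells, as were 55.8% of all genes with a value above 0 in any cell. They form 15 pairs. Over all 121 cells, Spearman's rho of TPM was above 0 in all 15 pairs, between 0.08 and 0.49, with a median of 0.23. The closest pair was DPPA2 with DPPA4 (0.49), the chromosome 3 neighbours, followed by ZFP42 with DPPA4 (0.42), DPPA4 with DPPA5 (0.41) and ZFP42 with DPPA2 (0.39). The coefficients were lower within the sets: the median was 0.01 among gene-rich cells, 0.16 among the others and 0.02 as a partial coefficient given that number.

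Within the 68 gene-rich cells, ZFP42 with DPPA4 had a rho of 0.41 and DPPA4 with DPPA5 one of 0.32. In the other cells these pairs were at 0.16 and 0.17, and given the number of detected genes both were at 0.21. The pair of DPPA2 and DPPA4 was at 0.19 there, at 0.38 in the other 53 cells and at 0.24 given the number of detected genes. PRDM14 and DPPA3 had no rho above 0.10 with any other member among gene-rich cells. In those cells, the lowest coefficient was that of DPPA3 with DPPA5, at -0.17, and 9 of 15 pairs were above 0.

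**Figure D5:**
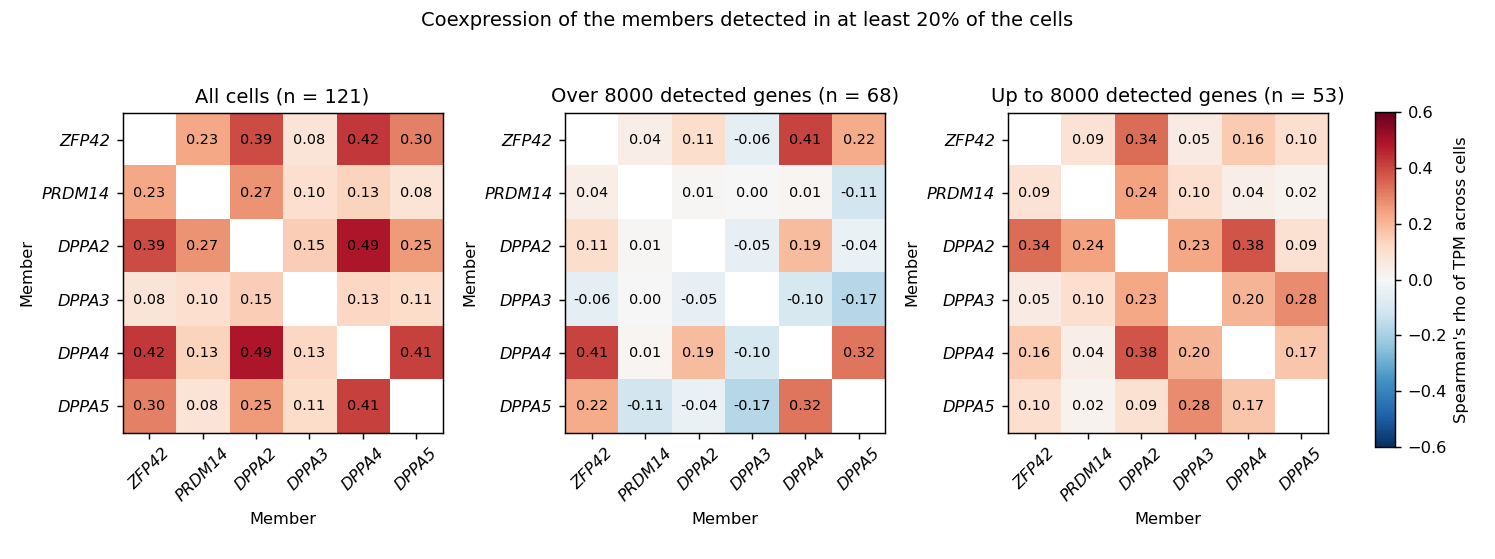
Spearman's rho of TPM for the 15 pairs of 6 members, over all 121 cells, the 68 gene-rich and the 53 gene-poor cells. Colour runs from blue at -0.6 to red at 0.6. DPPA2 with DPPA4 is at 0.49, 0.19 and 0.38 in this order, and ZFP42 with DPPA4 at 0.42, 0.41 and 0.16.

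The rarely detected factors were described by shared cells. Of the 7 cells with KLF5, 4 also had KLF4, while KLF4 was detected in 17 of all 121 cells. None of the 7 had TBX3, which was detected in 10.7% of all cells. TFCP2L1 and KLF4 shared 6 cells, or 30.0% of the TFCP2L1 cells and 35.3% of the KLF4 cells, and all 6 had more than 8000 detected genes. Within the gene-rich cells, KLF4 was found in 33.3% of the 18 cells with TFCP2L1 and in 12.0% of the 50 without. DPPA2 was detected in all 13 cells with TBX3 and in 57.4% of the others. Of the 13, 11 were gene-rich, and DPPA2 was detected in 87.7% of the gene-rich cells without TBX3. All 4 naive factors were found together in no cell, and KLF4, TFCP2L1 and TBX3 were joined in 2 cells, long telomere cell 39 and medium telomere cell 1.

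The genes most like each member were taken from 7899 others detected in at least 50% of the cells. Over the 68 gene-rich cells, ZFP42 was closest to LDHA, a lactate dehydrogenase subunit (rho 0.54), NDUFA5 (0.52) and DDX3X (0.50), and DPPA4 was the 41st of the genes ranked, at 0.41. DPPA4 was closest to RPL23 (0.51), LDHA (0.50) and SNHG6 (0.49), with ZFP42 the 32nd. PRDM14 was closest to SYT6 (0.54), EWSR1 (0.52) and NAPA (0.49), and the genes close to DPPA2 included AFF1 (0.46) and MT1E (0.45). The median rho over all genes ranked was at most 0.04 in each case. For ZFP42, LDHA also had a rho of 0.46 in the 53 other cells, whereas SYT6 with PRDM14 was at 0.14 there.

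Over all 121 cells other genes came first. ZFP42 was closest to UTP6 (0.63), RPL7 (0.62) and CAAP1 (0.60), PRDM14 to CYB5R1 (0.48), CWF19L2 (0.48) and CHID1 (0.45), DPPA2 to EIF4E3 (0.65), UAP1 (0.61) and PRKACB (0.61), and DPPA4 to CAPRIN1 (0.65), APP (0.64) and ADAM9 (0.63). The median rho was then 0.24 for ZFP42 and for DPPA2, 0.22 for DPPA4 and 0.13 for PRDM14.

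Most other markers of the naive state were as rare as the rare members or rarer. Of 12 such genes, 10 were detected in fewer than 20% of the cells. This share of cells was reached by 55.8% of all genes with a value above 0 in any cell. KLF17, a naive-specific Krüppel-like factor, was detected in 2 cells, KLF2 in 1, DNMT3L and SUSD2 in 4 each, and KHDC1L and HORMAD1 in none. The exceptions were TFAP2C, an AP-2 factor, detected in 94 cells, and ARGFX, a homeobox gene, detected in 70. TFAP2C was higher in long telomere cells by 1.24 and ARGFX lower by 1.40, at 1.15 ± 0.78 in long and 2.55 ± 2.25 in short telomere cells. Detection of NLRP7, the third by mean level, was in 10 cells.

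Primed-state markers were detected far more widely. Of 10 genes, 8 were detected in at least 50% of the cells, beside 37.5% of all genes with a value above 0 in any cell. CD24, a surface glycoprotein, was found in all 121 cells, SFRP2, a Wnt inhibitor, in 117, and THY1 in 114. Of these 10 genes, 4 were higher by at least 1 in long telomere cells, beside 38.9% of the genes compared, led by SFRP2 with 2.48, and FGF5 was lower by 1.33, a gene named after its values were seen. Summed over the list, the median TPM per cell was 1551, 1586 and 1230 in the long, medium and short group. For the 6 naive-associated transcription factors among the members the medians of the sums were 121.8, 107.6 and 41.4, and for the 4 DPPA genes 379.3, 325.4 and 245.5. The sum of the factors was mostly ZFP42 and PRDM14, used as markers in both states, with a mean TPM of 81.3 and 35.5 over all cells. KLF4, TFCP2L1, TBX3 and KLF5 had means of 2.56, 0.72, 0.52 and 0.30.

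Of 10 core pluripotency and hESC genes, 7 were higher by at least 1 in long telomere cells and none was lower, with a median of 1.81, beside 38.9% higher and a median of 0.70 over all genes compared. POU5F1 (0.93), LEFTY1 (0.80) and LIN28A (0.29) stayed below 1, and the largest difference was 3.38 for GDF3, a TGF-beta family ligand. Among gene-rich cells the median was 0.24, with 1 gene higher and 1 lower. Means over all cells were 9.91 ± 0.80 for POU5F1, 8.99 ± 1.72 for TDGF1 and 7.49 ± 0.97 for LIN28A, so that DPPA4 (7.97) stood between the latter genes.

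DPPA3 and PRDM14 are also germ cell genes, but other genes specific to germ cells were rare. NANOS3 and PRDM1 were detected in 2 cells each, DDX4 in 4 and DAZL in 20, while NANOG (116 cells), TFAP2C (94) and SOX15 (83) are shared with pluripotent cells. NANOG had the largest difference of this list, 3.21.

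Lineage markers were mostly near 0. None of 5 endoderm markers and none of 5 trophoblast and amnion markers was detected in 50% of the cells, and CXCR4, the highest of the endoderm list, was detected in 8 cells, followed by GATA4 in 5 and FOXA2 in 2. Of the 5 mesoderm markers, MIXL1 was detected in 46 cells and was lower in long telomere cells by 0.89, while MESP1 was detected in 6 and EOMES in 2. SIX3, a forebrain homeobox gene, was detected in 75 cells and PAX6 in 33, against 9 for SOX1. SIX3 was higher in long telomere cells by 1.5. KRT7 was detected in 46 cells, GATA3 in 7 and CDX2 in 2. Of the fibroblast genes, COL1A2 was detected in 77 cells and COL1A1 in 21, whereas DCN was in 1 cell and COL3A1 and LUM were in none. The summed TPM of the endoderm list had a median of 0 in each group. It reached 36.2 in the long and 14.8 in the medium group and was 0 in all short telomere cells. The sum of the mesoderm list had a median of 0.72, 0.36 and 7.6 in the long, medium and short group.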

How the data were processed

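Reads of 50 bases were mapped by the authors to hg19 with TopHat and counted per RefGene gene with HTSeq, per the methods, while the submitters' processing notes name TopHat2 and RSEM. The deposited table holds TPM values from the authors, 1 column per cell for 121 cells, rounded to 2 decimals. In each cell the 25610 genes read sum to between 979828 and 997050. Genes sorted after ZFR were not analysed here. T/R ratios were read from the study's supplementary table. TPM keeps no depth, so no counting error per value was given.

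Groups followed the sample names. The members and gene lists, and the border of 8000 detected genes, were chosen with earlier results of these data known. Detection was TPM above 1. Group means of log2(TPM + 1), each with its SD over cells, were subtracted, without tests. Named genes are the members, the 3 genes most like each member detected in at least 50% of the cells, and for each list the 3 with the highest mean log2 level and the gene with the largest difference. One gene named by this rule is not reported here. Genes given beyond this rule were named after their values were seen. Intervals are Clopper-Pearson. Positions come from GENCODE v44 on GRCh37 and promoters from RefSeq on GRCh38.p14, where 8 of 10 members matched. Sharing with other genes was counted over 50-base stretches of annotated transcripts. No 2 cells had identical values. The calculations were tested on simulated data. Python 3.11.15, numpy 2.4.6, scipy 1.17.1 and pandas 2.3.3 were used. Alternatives are listed with their effect in the closing section.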

Additional observations from a re-analysis of the deposited data

How the results depend on the processing

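No paired analysis was possible because the results come from no test and the cell numbers in the sample names only name the cells. Of 49 alternative values for the main results, 34 stayed within the limits set (0.5 on the log2 scale, 0.1 for a correlation, 1 member per cell, 1.5 times for a number of genes). The median long minus short difference over the members, 1.07, was 0.47 with a pseudocount of 10, 0.30 in cells with more than 8000 detected genes, 0 with group medians and 0.47 with the number of detected genes as a covariate. The number of members past 1 log2 unit, 5, was 2 with a pseudocount of 10, 2 in cells with more than 8000 and 2 in cells with up to 8000 detected genes, 3 without the 4 cells under 4000 detected genes, 3 with group medians and 1 with the covariate, which was added after seeing the data. The number of all genes past 1 log2 unit, 5729, was 8847 with a pseudocount of 0.1, 1516 with a pseudocount of 10 and 2791 in cells with more than 8000 detected genes. The median coexpression coefficient, 0.23, was 0.015 given the number of detected genes and 0.0058 in cells with more than 8000. Of 80 alternative values for the correlations of single members with the T/R ratio, 65 stayed within 0.1. None of a member with an r past 0.2 changed sign, but weaker ones did, such as ZFP42 from 0.04 to -0.09 after rescaling. Of 80 alternative values for the long minus short differences of single members, 48 stayed within 0.5 and 7 had the opposite sign. Of members past 1 there were 3: ZFP42 to -0.22 in cells with more than 8000 detected genes, and DPPA2 to -0.071 in cells with up to 8000 and to -0.42 with the covariate. The other 4 belonged to members below 1: TFCP2L1 (0.11) was at -0.70 in cells with more than 8000, at -0.20 with the covariate and at -0.0088 with a pseudocount of 10, and TBX3 (-0.08) was at 0.25 in cells with more than 8000. The cause was not tested. Rescaling moved the share of higher among all genes past 1 log2 unit from 91.2% to 75.5%. TPM keeps no depth, which limits every statement on genes at 0.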
